A study of Mus musculus with 4 samples.

Results

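Perp and 9 genes of the desmosome were examined in 4T1Br cells with and without a knockdown of YTHDF3. 4T1Br is a subline, selected for growth in the brain, of 4T1, a mouse mammary carcinoma line. The 10 genes were Perp, the armadillo protein genes Jup, Pkp1, Pkp2, Pkp3 and Pkp4, the plakin gene Dsp and the desmosomal cadherin genes Dsg2, Dsc2 and Dsc3. They were taken as the probe sets to which the platform annotation gives 1 of these symbols alone, 11 probe sets for 10 of the 22180 genes with a symbol of their own, and Dsg2 had 2 of them. The set was chosen by the measured shYTHDF3 minus shControl differences of Perp and Jup, known from earlier results of these arrays, and completed with other genes of the same junction, so the differences of all 10 are given here as a description. The study held 4 Affymetrix arrays of total RNA, 2 labelled shControl and 2 labelled shYTHDF3. All cells were transduced with lentivirus and selected with puromycin, so the groups share both treatments and differ in the hairpin. The titles write 4T1 where the cell line label writes 4T1Br. The labels name a single hairpin per group without its sequence and do not say whether arrays of a group stem from separate cultures. The p-values therefore cover the spread of these arrays alone, and that spread may be technical.

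Desmosomes are junctions that fasten the intermediate filaments of neighbouring epithelial cells to each other. Desmogleins and desmocollins are cadherins that bridge the gap between the cells, plakoglobin (the product of Jup) and the plakophilins (Pkp genes) bind their cytoplasmic tails, and desmoplakin (Dsp) ties this plaque to keratin filaments. Perp is a membrane protein with several transmembrane spans that is needed for stable desmosomes in stratified epithelia, and its gene is a target of p53 and of p63. YTHDF3 is a cytoplasmic protein that reads N6-methyladenosine in messenger RNA.

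Values are RMA expression on a log2 scale, 1 value per probe set and array, and a difference is the shYTHDF3 mean minus the shControl mean. Because every probe set binds its RNA with its own efficiency, levels of different genes are not ranked. A probe set was called above background when its mean over the 4 arrays exceeded 4.28, the 95th percentile of 1108 olfactory receptor probe sets. By that measure 6 of the 10 genes (Perp, Jup and the 4 plakophilins) were above background and tested, and 4 (Dsp, Dsg2, Dsc2 and Dsc3) were not. Closest to that level were Pkp1, with a mean of 4.59, and Dsg2, with a mean of 3.91. None of the 6 passed through 1 group alone, since both group means of each lay above 4.28.

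The hairpin's target checked the labels first. Ythdf3 read 8.98 and 8.81 on the 2 control arrays, against 8.21 and 8.16 with the YTHDF3 hairpin, which leaves 61.1% of the control level. The difference of -0.71 passed the limma test (adjusted p = 0.0355), but not when genes under the background were tested too (limma adjusted p = 0.0866). With 1 array left out it ran from -0.79 to -0.63. Array medians lay between 4.42 and 4.47. Of the 8 mammary epithelial carcinoma markers 6 were above background, Krt8 (mean 10.27) and Krt18 (mean 10.79) among them, whereas Epcam, with a mean of 3.93, and Cldn7 were below it and Cdh1, at 4.47, was just above it. The list's mean level was 6.44 and 6.47 in shControl and 6.62 and 6.59 in shYTHDF3. Markers of keratinocytes or squamous epithelium were above background for Krt10 and Lor, 2 of 9 measured, and Krt1, Krt14, Trp63, Dsg1a and Dsg3 were below it. Their mean level was 3.88 and 4.11 in shControl and 4.05 and 3.92 in shYTHDF3. Of the fibroblast markers 6 of 7 were above background, and their mean level was 5.48 and 5.69 in shControl and 5.10 and 5.19 in shYTHDF3. Of the cardiac muscle markers 2 of 7 were above background, and the list's mean level was between 4.65 and 4.77. Those above it were Tnnt2, with a mean of 8.89, and Tnni3, with a mean of 4.92. Endothelial markers (2 of 6, between 3.91 and 4.00) and leukocyte markers (1 of 5, between 4.29 and 4.53) made up the other lists. The mean of the mammary epithelial list was higher and those of the fibroblast and leukocyte lists were lower on both shYTHDF3 arrays. These means include genes under the background, whose differences carry no direction, such as Cldn7 (mean 4.02, difference 0.51). The genes above background in the mammary and fibroblast lists did not shift together, and the leukocyte list had only 1 such gene. The fibroblast mean turned on Dcn (difference -2.65) and Pdgfra (-0.61), while Col1a1 (0.10) and Pdgfrb (0.21) had positive differences. Cd68 (-0.72) was the leukocyte marker above background, and in the mammary list Krt18 (0.57) and Krt19 (-0.53) lay on opposite sides of 0. The part of these marker levels in the differences below was not tested, and in bulk RNA fewer cells of a type cannot be told apart from less RNA per cell.

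Perp differed most among the 10 genes. It read 5.85 and 5.72 on the 2 control arrays, against 7.66 and 7.55 with the YTHDF3 hairpin. Both shYTHDF3 arrays lay above both controls, with 1.70 between the nearest arrays of the 2 groups and no more than 0.13 between arrays of 1 group. The group means were 5.79 ± 0.09 and 7.60 ± 0.07 (SD, n = 2 each), a log2 difference of 1.81 (SE 0.10), or 3.52-fold. Among the 13056 genes tested, this was the difference of rank 2 from the top.

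Jup, whose product plakoglobin is found both in desmosomes and in adherens junctions, was also higher. Its arrays read 7.34 and 7.52 in the controls, against 8.36 and 8.23 in shYTHDF3. The groups did not overlap, with a gap of 0.71 against at most 0.19 within a group. The difference was 0.87 (SE 0.11), or 1.82-fold, rank 45 among the rises.

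Of the 10 genes, limma called these 2 higher and none lower at an adjusted p of 0.05, and 4 tested genes did not pass. Over all genes tested, 1.28% were called higher and 1.45% lower (2.73% in all). Since the members were picked with this comparison in view, nothing is read from their count. The Jup call ended when dim probe sets were tested too and when any 1 array was left out, and the Perp call ended without shControl 1, without shControl 2 and without shYTHDF3 1 but not without shYTHDF3 2. The fits with 1 array left out have 1 residual degree of freedom. Their differences ran from 1.75 to 1.88 for Perp and from 0.77 to 0.96 for Jup.

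**Figure D1:**
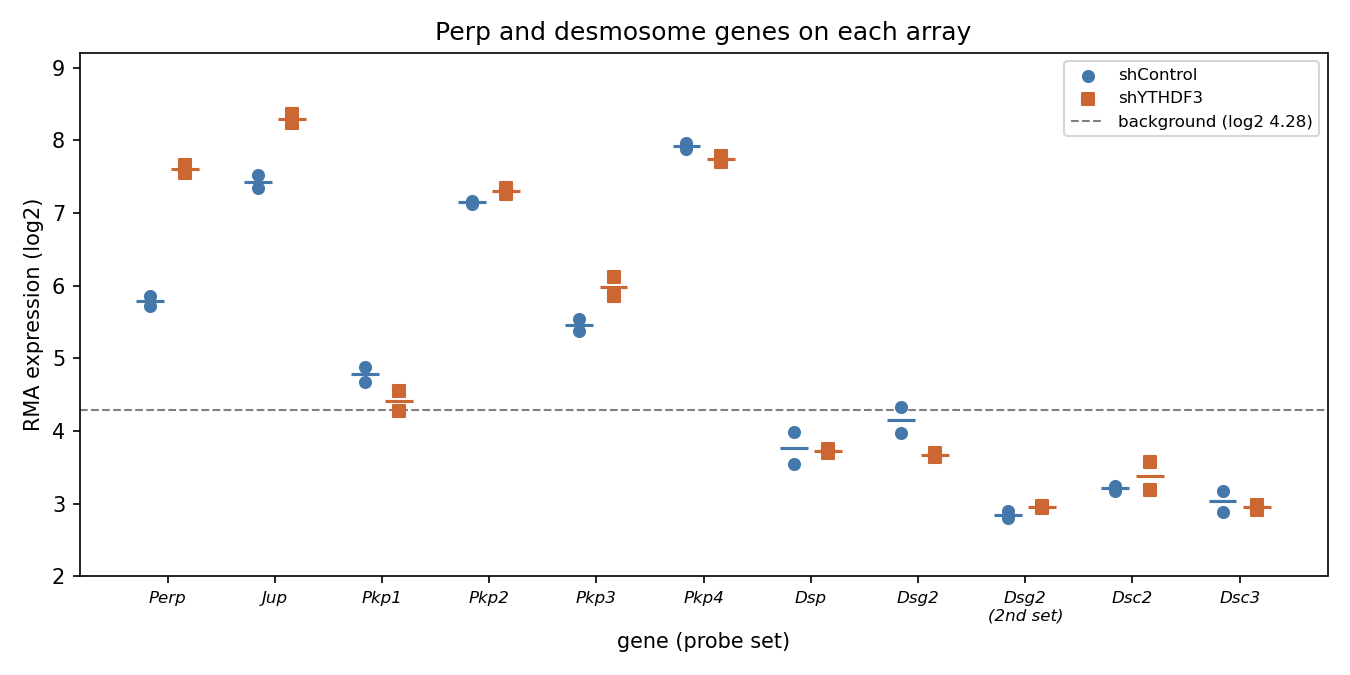
RMA expression (log2, vertical axis) of the 11 probe sets of Perp and the desmosome genes, with a point per array, a bar at each group mean and the background of 4.28 as a dashed line. Perp and Jup stand apart by 1.70 and 0.71 between the nearest arrays of the groups, and Dsp, Dsg2, Dsc2 and Dsc3 have means under the background.

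The 4 plakophilins, plaque proteins of the armadillo family that gather desmosomal cadherins and desmoplakin at the membrane, differed in both directions. Pkp3, the plakophilin found most widely in epithelia, read 5.38 and 5.54 in the controls, against 6.11 and 5.86 in shYTHDF3, a difference of 0.53 (SE 0.13). Pkp2, the plakophilin of simple epithelia and heart muscle, read 7.17 and 7.12 in the controls, against 7.34 and 7.26 in shYTHDF3, a difference of 0.16 (SE 0.09). In both, each shYTHDF3 array was above each control array.

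Pkp1, the plakophilin of the upper layers of stratified epithelia, read 4.88 and 4.68 in the controls, against 4.54 and 4.27 in shYTHDF3, a difference of -0.37 (SE 0.13). Its lowest array was under the background. Pkp4, also known as p0071 and present at both desmosomes and adherens junctions, read 7.96 and 7.88 in the controls, against 7.70 and 7.78 in shYTHDF3, a difference of -0.18 (SE 0.09). In these 2 genes each shYTHDF3 array was below each control array. None of the 4 plakophilins passed the limma test over all genes. The 2 groups failed to overlap in all 6 of the tested members, 4 with shYTHDF3 higher and 2 with it lower, and in 54.0% of all genes tested (28.3% higher and 25.7% lower). The gap between the groups was 0.32 for Pkp3, 0.13 for Pkp1, 0.10 for Pkp4 and 0.09 for Pkp2. It was wider than the larger within-group range for Pkp3 (0.25) and, narrowly, for Pkp2 (0.08) and Pkp4 (0.08), and narrower than it for Pkp1 (0.27).

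Desmoplakin and the desmosomal cadherins were not above background in either group. Dsp read 3.55 and 3.99 in the controls, against 3.69 and 3.75 in shYTHDF3, and the groups overlapped. Dsc2 read 3.17 and 3.25 in the controls, against 3.18 and 3.57 in shYTHDF3, with overlap. Dsc3 read 2.89 and 3.17 in the controls, against 2.98 and 2.91 in shYTHDF3, again with overlap. These values are bounds set by the background, so they carry no direction and do not show that the RNAs were absent.

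Both probe sets of Dsg2, the desmoglein of simple epithelia, had means under the background too, so their values give no direction either. The brighter one read 4.33 and 3.98 in the controls, against 3.64 and 3.70 in shYTHDF3, and only the first of these values passed 4.28. The dimmer one read 2.90 and 2.80 in the controls, against 2.97 and 2.94 in shYTHDF3. Over all 10 genes, each at its brighter probe set, the median difference was 0.06, with the 4 genes under the background counted at their measured values, and it ran from -0.039 to 0.15 when 1 array was left out. The median was 0.34 over the 6 genes tested, beside 0.0057 over all genes tested, and nothing is read from it for the reason given above.

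**Figure D2:**
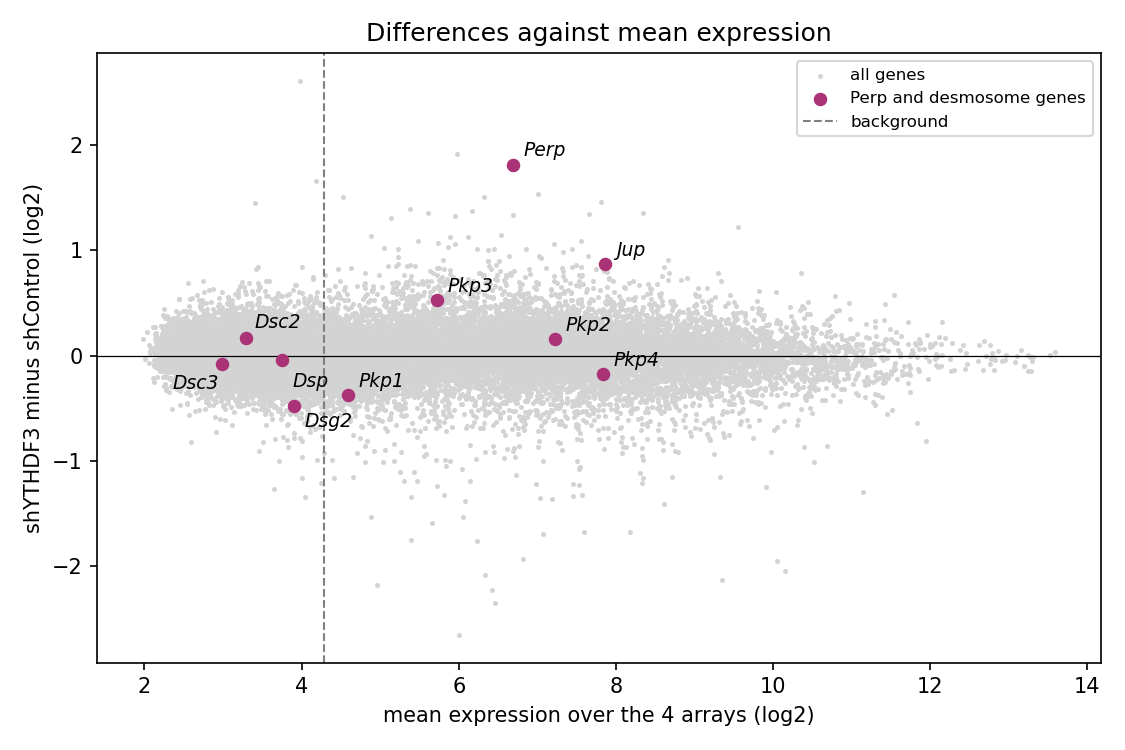
Difference between the groups (shYTHDF3 minus shControl, log2, vertical axis) against mean expression over the 4 arrays (log2, horizontal axis), with a grey point per gene and the 10 genes named; the dashed line is the background. Perp (1.81) lies near the top edge of the cloud and Jup (0.87) above most genes, while Pkp2, Pkp4 and the 4 genes left of the line lie within the cloud.

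Promoter sequence was at hand for 3 of the 10 genes, Jup, Dsp and Pkp4, in RefSeq's GRCm38.p6 annotation. Jup and Dsp are shown because one was called higher and the other stayed under the background in both groups. The windows are the 250 bases before the annotated start, written 5' to 3' on the gene's strand. Jup lies on the minus strand at chr11:100397791-100398040, and Dsp on the plus strand at chr13:38151044-38151293. Capitals mark every match, on either strand, to the motifs searched: the GC box GGGCGG, the CCAAT box CCAAT, the TATA box TATAAA, the E-box CACCTG and the p53 family half-site.
Jup: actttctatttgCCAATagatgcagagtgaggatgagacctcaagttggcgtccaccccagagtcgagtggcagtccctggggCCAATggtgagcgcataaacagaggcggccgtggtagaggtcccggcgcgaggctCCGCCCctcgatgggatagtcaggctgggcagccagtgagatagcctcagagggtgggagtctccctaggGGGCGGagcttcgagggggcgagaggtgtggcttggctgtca
Dsp: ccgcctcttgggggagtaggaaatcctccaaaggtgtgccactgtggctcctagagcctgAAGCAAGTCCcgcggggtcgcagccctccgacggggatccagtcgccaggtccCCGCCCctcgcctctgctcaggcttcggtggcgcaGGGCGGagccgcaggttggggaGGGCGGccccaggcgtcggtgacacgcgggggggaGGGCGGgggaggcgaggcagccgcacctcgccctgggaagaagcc
The Jup window holds 2 GC boxes and 2 CCAAT boxes and no match to the other 3 motifs. The Dsp window holds 4 GC boxes and 1 p53 family half-site. Of all 32851 windows of this length, 32.7% hold a GC box, 33.8% a CCAAT box, 12.4% a TATA box, 17.2% the E-box and 7.13% a p53 family half-site. G and C made up 62.0% of the Jup window and 72.4% of the Dsp window, beside a median of 52.4% over all windows. Of the 2 windows of Pkp4, the upstream one holds 5 GC boxes, some of them overlapping, and 3 CCAAT boxes, and the other holds 1 E-box. A match is a run of letters and says nothing on whether a factor binds there.

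Beyond these 10 genes, 9 more desmosome genes were measured, and 3 were above background. Those were Ppl, Evpl and Cdsn, which encode the plakins periplakin and envoplakin and the secreted adhesion protein corneodesmosin, and none passed the limma test. Ppl differed by 0.48 (SE 0.09, limma adjusted p = 0.0544), from 8.34 and 8.36 in shControl to 8.81 and 8.86 in shYTHDF3. Ppl passed with a stricter filter, set at the median probe set (limma adjusted p = 0.0471). It also passed with an intensity trend in the variance model (limma adjusted p = 0.00482), which called 1426 genes against 356 as reported. When dim probe sets were tested too, it did not pass (limma adjusted p = 0.136). Cdsn differed by -0.32 (SE 0.13, limma adjusted p = 0.230). Its shYTHDF3 mean of 4.26 was under the background, so it passed the filter through shControl alone. The desmogleins Dsg1a, Dsg1b, Dsg1c, Dsg3 and Dsg4 and the desmocollin Dsc1 all had means under the background. Together with Dsg2, Dsc2 and Dsc3, no desmosomal cadherin measured had a mean above it. Dsg1a, Dsg1b and Dsg1c are close copies, so their probe sets may share signal.

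Of the armadillo relatives and adherens junction partners, 8 of 9 were above background and none passed, with a median difference of -0.17. Ctnnb1, beta-catenin and the closest relative of plakoglobin, differed by -0.18 (SE 0.09, limma adjusted p = 0.325). The largest differences were those of Cdh3, P-cadherin, at -0.30 (SE 0.19, limma adjusted p = 0.400), and Ctnnd1, p120-catenin, at -0.23 (SE 0.11, limma adjusted p = 0.292). Cdh1, E-cadherin, differed by 0.10 (SE 0.11, limma adjusted p = 0.612).

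Among the intermediate filament genes, 6 of 13 measured were above background and 1 passed. Krt7, found in simple epithelia, rose by 1.50 (SE 0.10, limma adjusted p = 0.00816), from 5.55 and 5.58 to 6.99 and 7.15, and 5 did not pass; the median difference of the 6 was 0.20. The Krt7 call ended without any 1 of the 4 arrays, with differences from 1.42 to 1.59 and limma adjusted p from 0.0514 to 0.160. Hemidesmosomes hold epithelial cells to the basement membrane through the same filaments, and none of their 8 genes tested passed (median -0.07). The 2 chains of their integrin lay on opposite sides of 0, Itga6 at -0.49 (SE 0.11, limma adjusted p = 0.0767) and Itgb4 at 0.46 (SE 0.10, limma adjusted p = 0.0703). Both passed with an intensity trend, at limma adjusted p of 0.00608 and 0.0336, a setting that called 1426 genes against 356 as reported. Neither passed when dim probe sets were tested too, at limma adjusted p of 0.171 and 0.163.

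**Figure D3:**
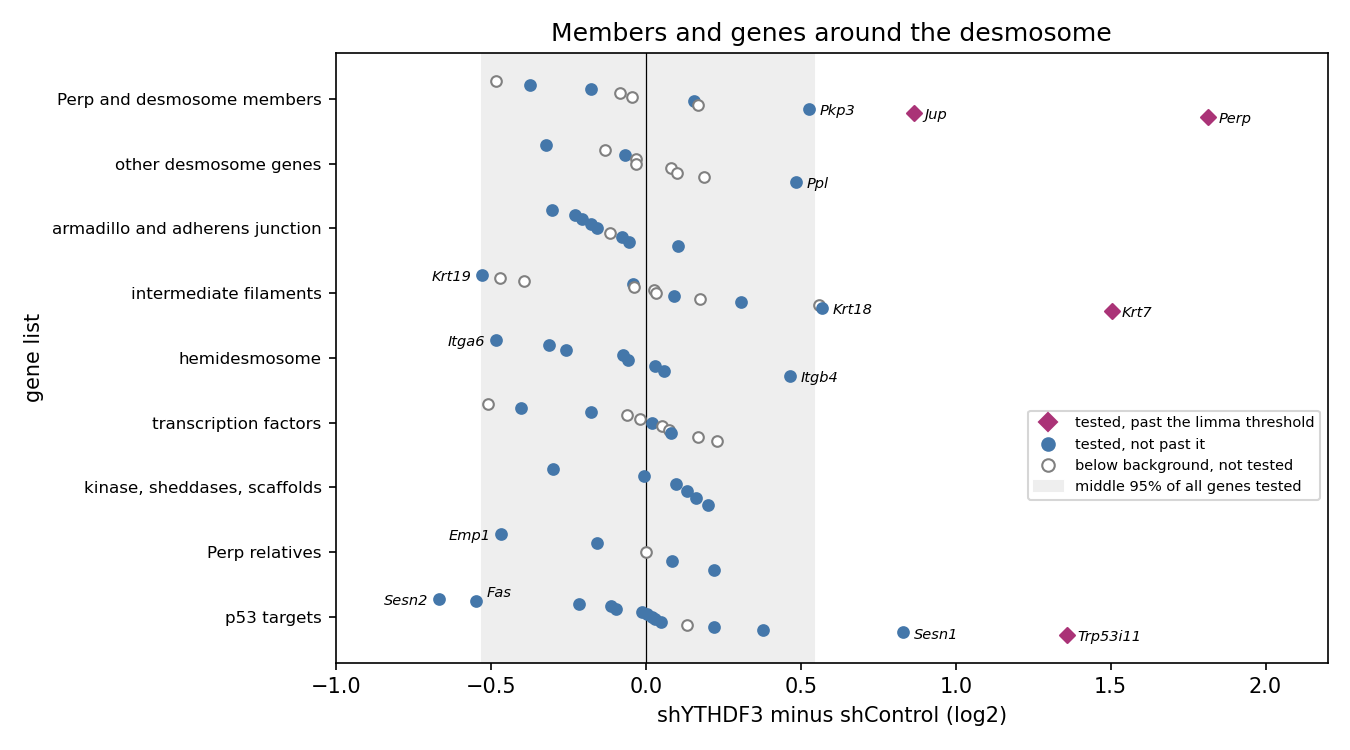
Difference between the groups (shYTHDF3 minus shControl, log2, horizontal axis) for each gene of the 10 and of 8 lists around them (vertical axis), at its brightest probe set; diamonds passed the limma test, filled circles were tested and did not, open circles were below background, and the grey band holds the middle 95% of all genes tested. Only Perp, Jup, Krt7 and Trp53i11 are diamonds.

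Transcription factors known for control of desmosome or epithelial adhesion genes were mostly dim, 4 of 11 measured being above background and none passing (median -0.08). Trp63, which encodes p63, was among the 7 under the background, and Trp53 was not analysed here. Klf4, an epithelial Kruppel-like factor, differed by -0.40 (SE 0.16, limma adjusted p = 0.214), and Snai1, a repressor of epithelial genes, by -0.18 (SE 0.12, limma adjusted p = 0.423). The 6 genes for a kinase, sheddases and membrane scaffolds that act on desmosomal proteins were all tested and none passed (median 0.12). Flot2, a flotillin, differed by -0.30 (SE 0.10, limma adjusted p = 0.151) and Erbin, a scaffold protein, by 0.20 (SE 0.09, limma adjusted p = 0.263).

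Perp belongs to a family of small membrane proteins with Tmem47, Pmp22, Emp1, Emp2 and Emp3 among its relatives. Of the 5 measured, 4 were above background and none passed (median -0.04). Emp1 differed by -0.47 (SE 0.10, limma adjusted p = 0.0732), and by -0.17 on its second probe set. It passed with an intensity trend (limma adjusted p = 0.00365), a setting that called 1426 genes against 356 as reported. It did not pass when dim probe sets were tested too (limma adjusted p = 0.167). The mean of its probe sets differed by -0.32 and did not pass either (limma adjusted p = 0.285). Emp3 differed by 0.22 (SE 0.09, limma adjusted p = 0.231). Of 14 other p53 target genes tested, 1 passed (median 0.01): Trp53i11 rose by 1.36 (SE 0.10, limma adjusted p = 0.00816). That call, too, ended without any 1 array, with differences from 1.30 to 1.42 and limma adjusted p from 0.0744 to 0.160.

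The genes whose pattern was most like a member's were taken as those with the smallest distance between the 4 array values, each gene centred on its own mean, among 11877 named genes tested. For Perp these were Lsamp (distance 0.35), Cyp24a1 (0.37), Krt7 (0.38), Gdpd5 (0.40) and Chrnb1 (0.47), with differences from 1.34 for Chrnb1 to 1.91 for Cyp24a1. The Lsamp control arrays were under the background, at 3.93 and 3.62. For Jup they were Nrm (0.05), Tmem170b (0.08), Ngfr (0.09), Mknk2 (0.10) and Pm20d2 (0.10), with differences from 0.79 to 0.87. Perp's nearest genes lay farther from it than Jup's did from Jup. With Perp's difference at rank 2, few genes could lie near it, so nothing is read from that. The genes named for Perp and Jup were picked for their likeness over 4 arrays, and that likeness was not tested.

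**Figure D4:**
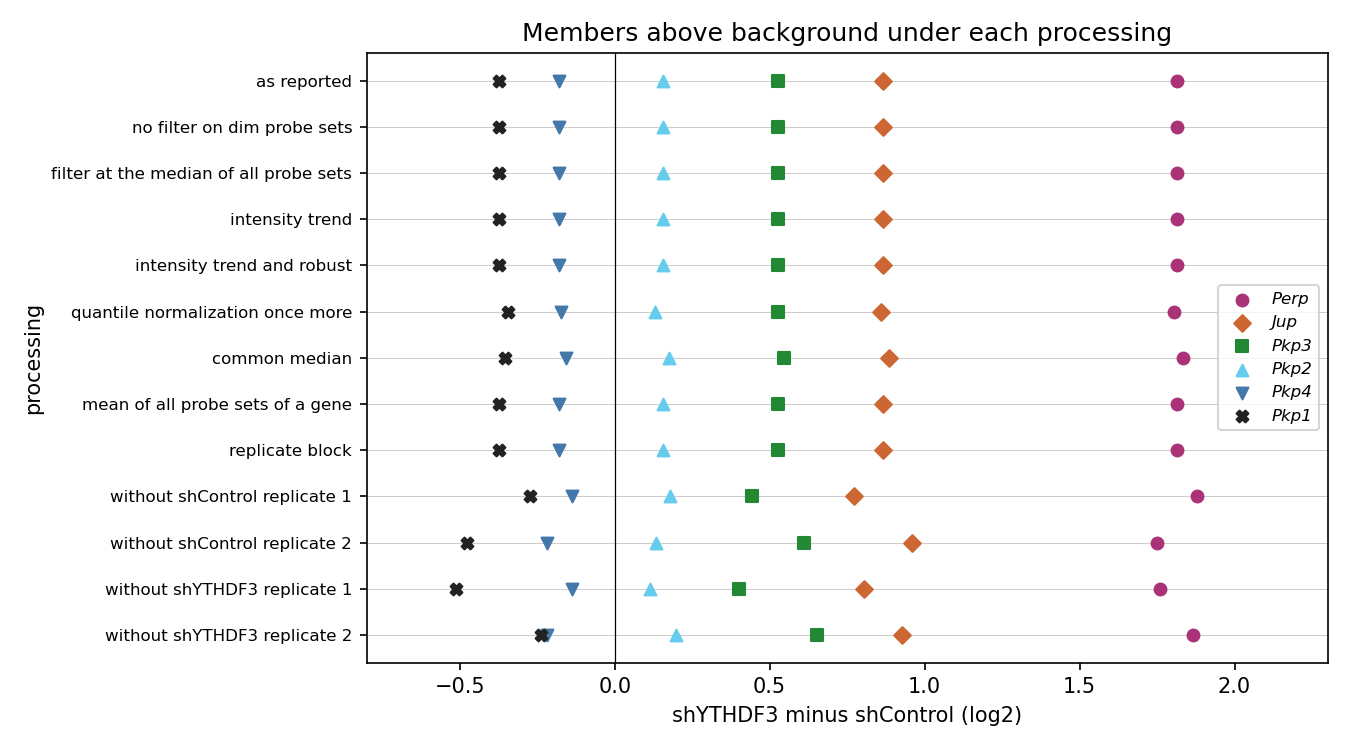
Difference between the groups (shYTHDF3 minus shControl, log2, horizontal axis) of the 6 genes above background as reported and under each other way of processing (vertical axis). Perp stays between 1.75 and 1.88 and Jup between 0.77 and 0.96, and each of the 6 genes keeps its side of 0.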

How the data were processed

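The authors deposited RMA expression values for each probe set, as the submitters' processing notes say, and these were taken as log2 from their range. The log base, the software version and the genome build are not stated in the sources used here. RMA makes the arrays' distributions alike, so a shift of most genes in 1 direction would not be seen. Arrays have no sequencing depth, and precision is limited by how few there are. The members and gene lists were chosen with earlier results of these data known.

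Of 41345 probe sets, 23521 had 1 symbol in the platform annotation, 1814 several and 16010 none; 23328 took their current RefSeq symbol through the Entrez identifier. A gene's value was its probe set with the highest mean. The 13056 genes above log2 4.28 were tested with limma 3.58.1 (lmFit and eBayes, defaults, two-sided, R 4.3.3), with Benjamini-Hochberg adjustment over them and a threshold of 0.05. An exact permutation test of 2 against 2 arrays cannot go below p = 0.333 and was not used. Named were the members, Ythdf3, and from each list the genes that passed or, with none, the 2 with the largest differences; Ctnnb1 and Cdh1 were added after their values were seen. Some listed genes, Trp53 among them, were not analysed here. The limma step was tested on simulated data. Other settings tried were testing all genes, a filter at the median probe set, an intensity trend (also with robust estimation), repeated quantile normalization, a common median, the mean of a gene's probe sets, the replicate number as a block, and leaving out each array. Figures used matplotlib 3.10.9.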

Additional observations from a re-analysis of the deposited data

How the results depend on the processing

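The 356 genes called over all genes became 43 without the filter on dim probe sets, 1426 with an intensity trend, 1465 with the trend and robust estimation, and 51 with the replicate number as a block. With 1 array left out the count ran from 0 to 12. The count of desmosome genes called, 2 as reported (Perp and Jup), became 1 without the filter and 1 with the block, Perp in each, and ran from 0 to 1 with 1 array left out; it stayed at 2 under the other 6 alternatives. The block rests on replicate numbers that the labels do not tie to a shared culture or day. The differences of replicate 1 minus replicate 2 in the 2 groups correlated at -0.07 over the genes tested, so the numbers were not taken to pair the arrays. No member above background changed sign under any alternative run. Under the background, where differences carry no direction, those of Dsp, Dsc2 and Dsc3 changed sign with 1 array left out, and that of Dsg2 moved from -0.48 to -0.19 with the mean of its probe sets. Repeated normalization and a common median moved the median difference of all genes by 0.0099 and 0.020.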

Other observations

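Krt17, a keratin of basal and stressed epithelia, was left out of the test because its mean over the 4 arrays was under the background. It read 3.89 and 3.93 in the controls, against 4.49 and 4.45 in shYTHDF3, so that only the shYTHDF3 arrays passed 4.28. Desmin (Des), the filament that desmosomes anchor in muscle, was likewise left out and read 4.14 and 4.59 in the controls, against 3.86 and 3.92 in shYTHDF3.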
